A study of Mus musculus with 2 samples.

Results

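Among the Sox4 peaks of mouse progenitor B cells, 654 broad intervals lay over the transcription start of 1 gene each. They were chosen from the list of 8730 peaks as those in the promoter class that covered the starts of exactly 1 gene symbol and were 1500 bp or longer. A single-gene promoter was covered by 4790 peaks in all, so the broad ones were 13.7% of these. The other 4136, under 1500 bp, are called narrower peaks here. Width is itself a measured value, and tags, fold and score come from the same peak calls. These values are therefore given as a description of the chosen peaks and were not tested. The 654 intervals belonged to 650 genes, and 641 of them (98.0%) lay over a protein-coding gene. Of the remaining 13, 11 lay over long noncoding RNA genes, 1 over an antisense RNA gene and 1 over a microRNA gene.

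Chromatin captured with tagged Sox4 (bioChIP, 1 library) was sequenced beside input chromatin (1 library), with no replicate of either. Both libraries came from the same C57BL/6 cells, which were progenitor B cells of embryonic fetal liver, immortalized with p190 Bcr-Abl. The cells had received 4 retroviral constructs in turn, with a sort after each. They carried BirA, then p190 Bcr-Abl, then SE-Cre and last BAP-Sox4. BirA is a bacterial ligase that biotinylates a short acceptor peptide, so that the tagged factor can be captured on streptavidin beads, and the labels' antibody field reads SOX4. Cells without BAP-Sox4 were not analysed here, and the level of the introduced factor, the promoter that drives it and the clonality of the line are not given in the sources used here. All values below are from the bioChIP peak list. Whether the peak caller was given the input library as its control is not stated.

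Sox4 belongs to the SOX family of transcription factors, which bind the minor groove of DNA through an HMG box and bend it, and its core site is close to AACAAT. Mouse B-cell development stalls early when Sox4 is lost. In a chromatin pull-down, 1 bound site yields an interval about as long as the sonicated fragments allow, while several sites or signal spread along chromatin yield a longer one. Many mammalian promoters are CpG-rich, with an open stretch around the start flanked by nucleosomes, and their transcription often begins at several nearby positions.

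The promoters of the 5 widest members are shown because the intervals over them set the upper end of the list. The RefSeq windows (GRCm38.p6, 250 bases before to 50 after the start, read 5′ to 3′ along the gene) have GC boxes in capitals, written GGGCGG or CCGCCC depending on the strand, where KLF and SP factors bind. The ETS-type word CCGGAAG or its complement CTTCCGG was marked in the same way. It does not occur in these 5 windows. Matches to GGGCGG numbered 4 in Midn, 3 in Mex3b, 1 in Ptma and 4 in Mnt, some of them overlapping, and 0 in Tle3. The Tle3 window also had the lowest GC content of the 5, 53.7%, while the other 4 were between 68.0% and 70.7%.
Midn, chr10:80148022-80148321, plus strand: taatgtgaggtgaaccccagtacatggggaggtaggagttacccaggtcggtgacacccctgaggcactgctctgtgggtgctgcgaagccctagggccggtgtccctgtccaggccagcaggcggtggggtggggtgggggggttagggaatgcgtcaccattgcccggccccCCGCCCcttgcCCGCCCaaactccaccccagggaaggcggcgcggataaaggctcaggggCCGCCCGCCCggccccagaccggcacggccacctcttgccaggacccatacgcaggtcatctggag
Mex3b, chr7:82867083-82867382, plus strand: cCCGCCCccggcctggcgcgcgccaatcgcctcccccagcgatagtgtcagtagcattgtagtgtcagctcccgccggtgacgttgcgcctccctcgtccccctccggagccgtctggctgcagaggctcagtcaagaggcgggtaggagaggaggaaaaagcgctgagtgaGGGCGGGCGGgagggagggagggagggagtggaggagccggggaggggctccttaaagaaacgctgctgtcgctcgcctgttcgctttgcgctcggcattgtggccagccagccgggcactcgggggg
Ptma, chr1:86526307-86526606, plus strand: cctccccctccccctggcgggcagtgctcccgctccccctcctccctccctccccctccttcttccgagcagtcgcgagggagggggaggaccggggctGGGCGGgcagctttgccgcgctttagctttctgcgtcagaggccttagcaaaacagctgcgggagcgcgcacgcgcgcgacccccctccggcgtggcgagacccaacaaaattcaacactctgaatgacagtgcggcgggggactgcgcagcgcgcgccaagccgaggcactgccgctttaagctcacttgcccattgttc
Tle3, chr9:61372116-61372415, plus strand: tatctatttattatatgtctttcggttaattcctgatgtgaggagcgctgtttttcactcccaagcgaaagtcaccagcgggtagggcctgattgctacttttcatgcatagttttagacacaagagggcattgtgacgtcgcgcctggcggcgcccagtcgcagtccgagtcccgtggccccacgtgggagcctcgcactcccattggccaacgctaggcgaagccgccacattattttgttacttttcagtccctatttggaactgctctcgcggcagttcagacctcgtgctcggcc
Mnt, chr11:74830674-74830973, plus strand: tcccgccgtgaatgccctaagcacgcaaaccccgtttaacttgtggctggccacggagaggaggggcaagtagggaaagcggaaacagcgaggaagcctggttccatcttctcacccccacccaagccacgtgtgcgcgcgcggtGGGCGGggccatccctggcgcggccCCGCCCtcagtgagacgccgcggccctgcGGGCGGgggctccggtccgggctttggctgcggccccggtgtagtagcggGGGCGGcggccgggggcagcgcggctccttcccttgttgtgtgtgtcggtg

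The 5 intervals over these starts are far longer than the windows printed. In the deposited mm9 coordinates the Midn interval ran over chr10:79610443-79616040, which is 5597 bp, and held 1078 tags (exact Poisson 95% interval 1015 to 1144) at a fold of 29.6 over the caller's background. Midn encodes midnolin, a nuclear protein that delivers short-lived regulators to the proteasome. Mex3b, for an RNA-binding protein with KH domains, had an interval of 3832 bp (chr7:90013890-90017722) with 630 tags and a fold of 15.8. Ptma, for the abundant acidic nuclear protein prothymosin alpha, had 3752 bp (chr1:88421583-88425335), 690 tags and a fold of 32.9. The interval at Tle3, a Groucho-type corepressor, measured 3661 bp (chr9:61219074-61222735) with 325 tags and a fold of 5.48. That at Mnt, a MAX partner that represses MYC targets, measured 3382 bp (chr11:74643324-74646706) with 334 tags and a fold of 6.34. The density was 193, 164 and 184 tags per kb for Midn, Mex3b and Ptma and 88.8 and 98.8 for Tle3 and Mnt. Mex3b and Ptma thus held far more tags than Tle3 in intervals of nearly its width.

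The next 5 in width all encode regulators or a receptor. Arid1a, the DNA-binding subunit of the BAF remodelling complex, had 3381 bp, 478 tags and a fold of 10.4. Ubtf, the RNA polymerase I factor UBF, had 3332 bp, 341 tags and a fold of 5.13. Cux1, a homeodomain factor, had 3234 bp and 274 tags at a fold of 3.89. Lrp8, a receptor of the LDL receptor family that binds reelin, had 3131 bp, 280 tags and a fold of 3.97, and E2f3, a cell-cycle transcription factor, had 3083 bp, 340 tags and a fold of 7.76. Cux1 and Lrp8, though wide, lay below the median fold of all peaks, 4.43.

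**Figure D1:**
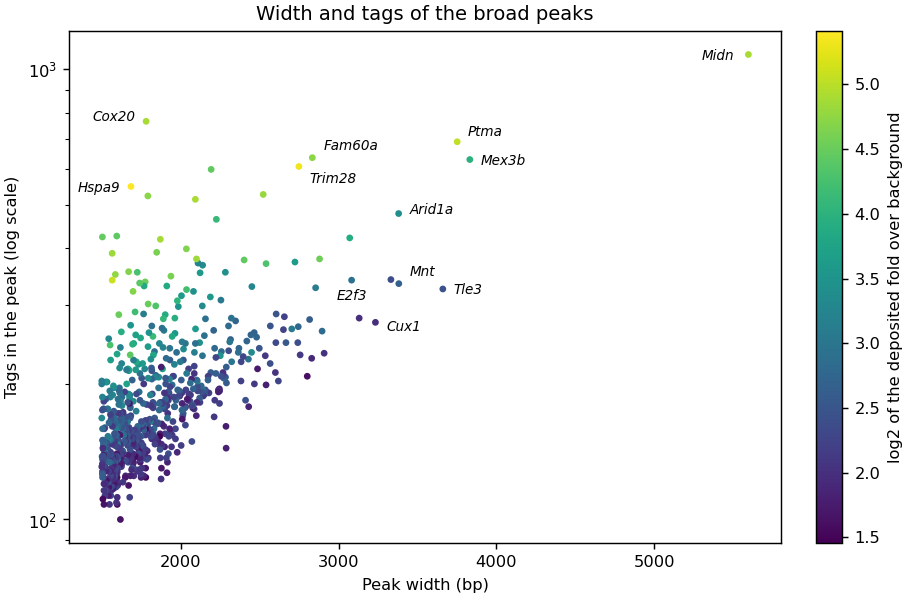
Width in bp (x axis) and tags on a log scale (y axis) of each of the 654 broad peaks, 1 point each, coloured by the log2 of the deposited fold over background. Midn stands alone at 5597 bp and 1078 tags, Cox20 and Hspa9 are dense for their width, and Cux1 is wide with a fold of 3.89.

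High fold and great width mostly picked different members. The highest fold was 42.5 at Hspa9, the mitochondrial HSP70 chaperone, in an interval of 1685 bp with 549 tags. Trim28, a corepressor recruited by KRAB zinc finger proteins, had a fold of 40.0 with 608 tags in 2749 bp. Tecr, an enzyme of very-long-chain fatty acid elongation, had a fold of 34.1 with 340 tags in 1566 bp. Rnf44, a RING finger protein, followed Ptma with a fold of 29.6 and 514 tags in 2093 bp. By tags the order was Midn, Cox20, Ptma, Fam60a, Mex3b and Trim28. Cox20, an assembly factor of cytochrome c oxidase, had 766 tags in 1781 bp, which at 430 tags per kb was the densest broad peak. Fam60a, a subunit of the SIN3-HDAC complex, had 636 tags in 2834 bp and a fold of 26.5. Only Midn and Ptma were among the 10 widest and the 6 highest by fold as well as the 6 with most tags.

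The lower limit cut through a continuous range of widths. Of the 654 intervals, 162 were shorter than 1600 bp, 159 reached 2000 bp and 11 reached 3000 bp. At exactly 1500 bp lay 4 members, which were Rnf157 (203 tags, fold 8.64), Klhdc2 (200 tags, fold 8.48), 9830001H06Rik (168 tags, fold 10) and 4933439C10Rik (131 tags, fold 4.06). Just below the limit were Maml1 and Mafg, each 1 bp short of it (126 tags at a fold of 4.39 and 119 tags at a fold of 5.35), and 5430417L22Rik at 1498 bp (116 tags, fold 3.65).

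**Figure D2:**
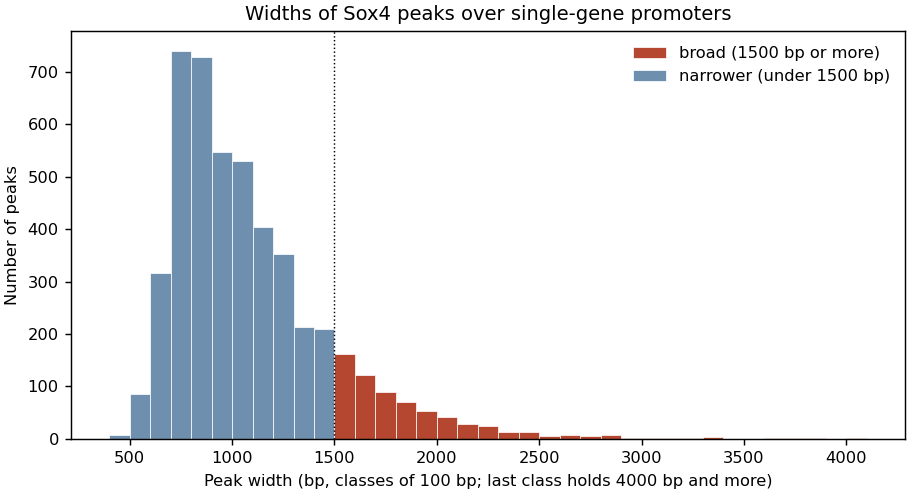
Number of single-gene promoter peaks (y axis) in width classes of 100 bp (x axis), broad peaks in red and narrower ones in blue, with a dotted line at 1500 bp. The counts decline without a gap across the line, with 162 peaks in the first broad class and 210 in the class just below it.

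The broad peaks had a median width of 1747.5 bp (quartiles 1601 and 1984) and the narrower ones 929 bp (786 and 1131). Tags had a median of 168 (142 and 213.5) in broad peaks, with a range of 100 to 1078, and 72 (56 and 95) in narrower ones. Per kb of interval the medians were 92.9 tags in broad peaks and 76.4 in narrower ones, so the broad intervals were denser as well as longer. The median fold was 5.33 (4.32 and 7.43) in broad peaks and 4.39 (3.76 and 5.30) in narrower ones. Folds of 10 or more occurred in 89 broad peaks, or 13.6% (exact binomial 95% interval 11.1 to 16.5), and in 116 narrower ones, or 2.80% (2.32 to 3.35). Over all 8730 peaks this share was 4.39%. The nearest class, single-gene promoter peaks from 1000 bp to just under 1500 bp, had 97 of 1709 (5.68%) and a median of 83.0 tags per kb.

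A large fold was nevertheless not a general property of the broad peaks. A fold at or under 4.43 was found in 182 of them, while 313 reached 5.42, the upper quartile of all peaks. The lowest folds, named after their values were seen, were 2.75 at Abhd11, 2.86 at Rnf19b and 2.92 at Il17ra. Within the 654 the Spearman correlation of width with tags was 0.63 and that of width with fold 0.12, while tags and fold correlated at 0.67. Over all 4790 single-gene promoter peaks the width and tags correlated at 0.95. All 4 are correlations across peaks of 1 library that share its depth and caller, and tags are counted over the width. The width of an interval therefore followed its tag number closely in this list, and the part of depth or fragment length in the width was not tested. Broad peaks held 126682 of the 763284 tags in all peaks (16.6%). The total depth of the library is not known, so intervals here cover counting error only.

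Broad intervals were not confined to single-gene promoters. Of 755 promoter peaks that covered the starts of 2 or more genes, 124 reached 1500 bp (16.4%, 13.9 to 19.3), and of the 3185 remaining peaks 108 did so (3.39%, 2.79 to 4.08). More transcripts with their own start were also found under broad peaks, since 173 (26.5%, 23.1 to 30.0) covered at least 2 listed starts of their gene, against 860 narrower ones (20.8%, 19.6 to 22.1). A longer interval can take in more starts by its length alone. A further peak lay within 5 kb of 87 broad peaks (13.3%, 10.8 to 16.1) and of 423 narrower ones (10.2%, 9.32 to 11.2), and these intervals overlap. The difference of 3.08 points was 0.75 points among peaks with a fold of 5 or more. Within 10 kb the shares were 21.1% for broad and 19.0% for narrower peaks.

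Because the deposited distances are 0 wherever a peak covers a start, the start itself was worked out from the distances of the same transcript to other peaks. This placed the start inside the peak for 359 broad peaks (54.9%) and 2176 narrower ones (52.6%). Broad peaks reached a median of 690 bp upstream (95% interval of the median 638 to 738) and 1110 bp downstream (1032 to 1149). Narrower peaks reached 432 bp upstream (424 to 438) and 489 bp downstream (477 to 504). The medians thus differed by 621 bp downstream and by 258 bp upstream. The arms of a peak add up to its width, which chose the broad set, so longer arms there follow from that choice. The choice does not set how the width is divided between the arms. The downstream arm was the longer one in 258 of 359 broad peaks (71.9%, 66.9 to 76.5) and in 1225 of 2176 narrower ones (56.3%, 54.2 to 58.4). In peaks from 1000 bp to just under 1500 bp it was the longer one in 621 of 932 (66.6%). The downstream arm made up a median of 61.4% of a broad peak's width and 52.8% of a narrower one's. Most of the 359 broad peaks with a recovered start thus reached further into the gene than upstream of it. The lower quartile of their downstream share was 45.9%, and peaks without a recovered start were not measured. Where several starts were recovered the most upstream was used, which lengthens the downstream arm, and these shares are given for it only. With the most downstream start the medians of broad and narrower peaks differed by 553 bp downstream and 304 bp upstream. Among peaks with 1 transcript start they differed by 569 and 282.5 bp. Both alternatives were chosen after seeing the data.

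**Figure D3:**
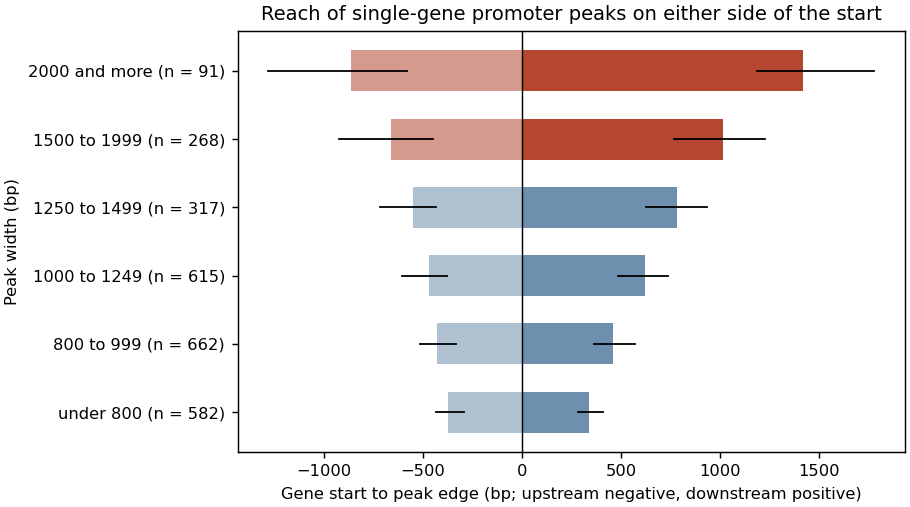
Median distance in bp from the gene start to the upstream edge (pale, negative) and downstream edge (full colour, positive) of single-gene promoter peaks in 6 width classes (y axis, with the number of peaks). Narrower classes are blue, broad ones red, and black lines span the quartiles. The downstream arm lengthens from 340 bp in the narrowest class to 1418 bp in the widest, and the upstream arm from 374 to 864 bp. The arms of a peak add up to the width that sets its class, so some lengthening follows from the classes.

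The summit, the position of highest tag density, lay further from the start in wider peaks. It lay within 250 bp of the start in 155 broad peaks (43.2%, 38.0 to 48.5) and in 1769 narrower ones (81.3%, 79.6 to 82.9). In 120 broad peaks (33.4%) and 234 narrower ones (10.8%) it was more than 250 bp downstream. In 84 broad peaks (23.4%) and 173 narrower ones (7.95%) it was more than 250 bp upstream. From peaks under 800 bp to those of 2000 bp and more, the share with the summit within 250 bp was 93.0%, 83.5%, 77.4%, 62.8%, 48.1% and 28.6% over the 6 width classes. A longer interval leaves the summit more room, so these shares depend in part on the width that chose the peaks.

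Named members showed each of these shapes. The Midn interval reached 591 bp upstream and 5006 bp downstream of the start, with its summit 2101 bp downstream, in a gene 12364 bp long. Rnf44 (426 bp upstream, 1667 bp downstream, summit 952 bp downstream), Fam60a (610 and 2224 bp, summit 1331 bp downstream) and Ubtf (665 and 2667 bp, summit 1028 bp downstream) were of the same downstream kind. Ptma was nearly even, with 1728 bp upstream and 2024 bp downstream and a summit 131 bp upstream of the start. In Trim28 (1492 bp upstream, 1257 bp downstream), Hspa9 (1245 and 440 bp) and Cox20 (1310 and 471 bp) the upstream arm was the longer one, and the summits lay 857, 572 and 350 bp upstream. These 3 were among the members with the highest fold or most tags, as were Midn, Rnf44, Fam60a and Ptma.

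Genes with a broad peak were longer, with a median of 35469.5 bp (95% interval of the median 31665 to 41395, 650 genes), than those with a narrower one, with 25887.5 bp (24807 to 26986, 4108 genes). Genes under peaks from 1000 bp to just under 1500 bp had a median of 30307 bp (28276 to 32031), whose interval overlaps that of the broad set, and the difference to them was 5162.5 bp in place of 9582 bp. In 3 broad peaks the interval also covered the end of a transcript, at Sit1, Hes5 and Mirlet7i, and in 6 narrower ones. Sit1, a transmembrane adaptor of lymphocytes, is 1627 bp long and lay inside an interval of 2449 bp with 235 tags. Hes5, a Notch-responsive repressor, had an interval of 2156 bp with 194 tags, which reached 1543 bp past its recovered start. Its RefSeq length of 1747 bp is greater than that reach. The transcript end covered in the deposited distances is therefore not shown to be that of the RefSeq gene. These genes, and the noncoding and doubly covered ones below, were named after their values were seen.

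Mirlet7i, the precursor gene of a let-7 microRNA, lay inside an interval of 1746 bp with 253 tags and a fold of 14.1, and was the only microRNA gene among the members. Its mature strands are shown because they identify which let-7 family member the peak covered. Capitals mark the seed (bases 2 to 8), through which a microRNA pairs with its targets, and the sequences are RefSeq's on the minus strand of GRCm38.p6, at chr10:122985698-122985719 for the 5p strand and chr10:122985642-122985663 for the 3p strand.
mmu-let-7i-5p: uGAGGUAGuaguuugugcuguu
mmu-let-7i-3p: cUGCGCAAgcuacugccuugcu

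Of the noncoding members the most tags were found at B330016D10Rik, with 527 tags over 2523 bp at a fold of 27.8, and at Malat1, an abundant nuclear RNA, with 335 tags over 1740 bp at a fold of 20.8. The Malat1 interval lay mostly upstream of the start, 1496 bp against 244 bp downstream. Dleu2, the host transcript of miR-15a and miR-16-1, had the widest noncoding interval, 2567 bp with 222 tags and a fold of 5.29. Nespas, an antisense RNA of the imprinted Gnas locus, had 2257 bp and 208 tags.

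Broad peaks over 2 separate starts were found for 4 genes. Pfkfb3, a regulator of glycolysis, had intervals of 1870 bp (146 tags) and 1504 bp (187 tags), and Hnrnpf, an RNA-binding splicing regulator, had 2072 bp and 1628 bp with 179 tags each. Bcl11a, a zinc finger repressor needed for B-lymphoid development, had 2223 bp (211 tags) and 1736 bp (140 tags). Dnmt3a, a de novo DNA methyltransferase, had 2052 bp (190 tags, fold 4.33) and 1539 bp (176 tags, fold 9.86). In Hnrnpf, Dnmt3a and Pfkfb3 the shorter interval had the higher fold, and in Bcl11a the longer one had, at 6.22 against 4.07.

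Gene groups were described by the share of their genes whose single-gene promoter peak was broad. That share was 13.7% over all 4753 genes with such a peak. Of 24 lists with at least 9 such genes, 18 had a higher share, and in 9 of these the whole 95% interval lay above 13.7%. No list was tested, because the width chose the peaks and the lists were drawn up with earlier results of these data known.

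**Figure D4:**
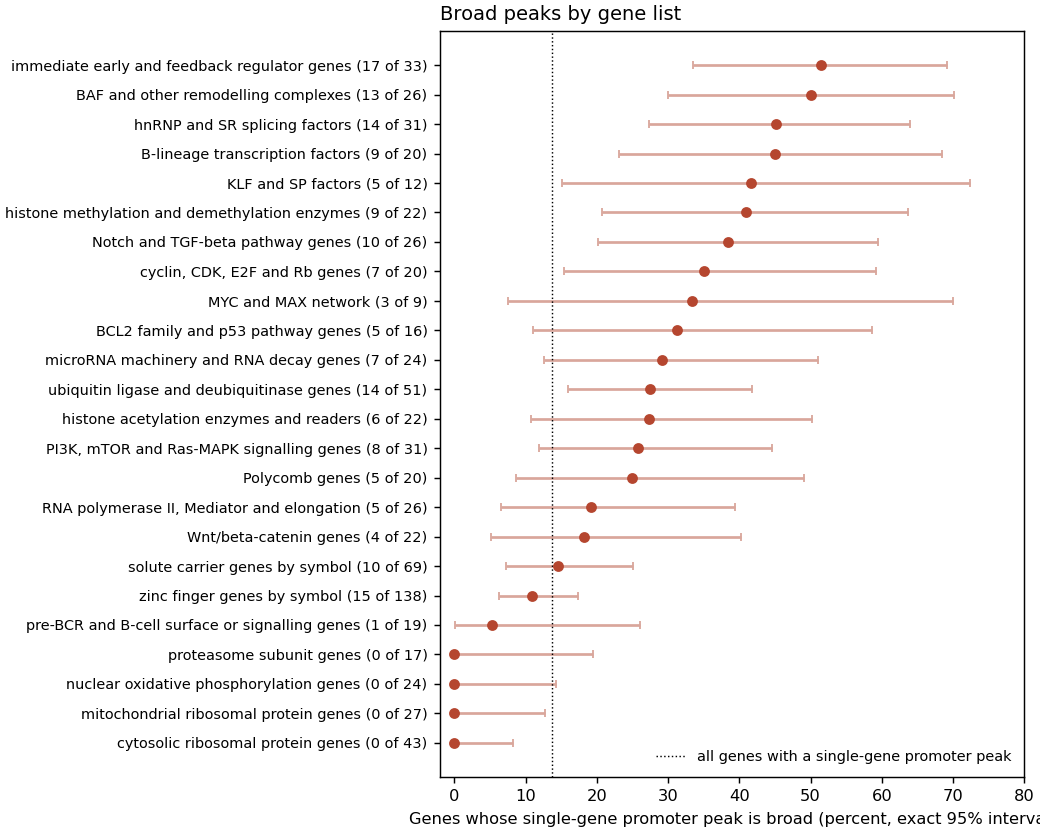
Percent of genes with a single-gene promoter peak whose peak was broad (x axis) for 24 gene lists (y axis, broad of all in brackets). Points are the share, bars its exact 95% interval, and the dotted line the 13.7% of all such genes. Immediate early, BAF, splicing and B-lineage factor genes are at the top, between 45.0% and 51.5%, and the 2 ribosomal, the oxidative phosphorylation and the proteasome lists are at 0.

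Immediate early genes and feedback regulators had the highest share, 17 of 33 genes (51.5%, 33.5 to 69.2). Their median width was 1525 bp and their median fold 4.88, where all single-gene promoter peaks had 994 bp and 4.50. The widest were Socs1, an inhibitor of JAK signalling, with 2603 bp and 247 tags, Pim1, a serine/threonine kinase induced by STAT5, with 2157 bp and 279 tags, and Trib1, a pseudokinase adaptor for ubiquitination, with 2137 bp and 298 tags. The list's other broad members include 4 phosphatases that switch off MAP kinases (Dusp1, Dusp2, Dusp5 and Dusp6), Spry1, Spry2 and Spred1, which dampen Ras-MAPK signalling, and Socs3. Their folds were between 3.26 and 5.85, so these were wide intervals of moderate fold. Jun, a subunit of AP-1, had 1749 bp, 153 tags and a fold of 5.81.

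Chromatin remodelling genes combined width with fold. Of 26 genes of the BAF and other remodelling complexes 13 were broad (50%, 29.9 to 70.1), with a list median of 1491.5 bp, 159.5 tags and a fold of 6.29. All single-gene promoter peaks had a median of 79 tags. Besides Arid1a, the widest were Arid1b, an alternative BAF subunit, with 3071 bp, 422 tags and a fold of 14.9, and Arid2, a subunit of the PBAF variant, with 2880 bp, 379 tags and a fold of 23.4. Of the other members, Smarce1 (424 tags, fold 22.1), Baz1b (244 tags, fold 19.3) and Smarcc1 (261 tags, fold 15.0) reached a fold of 10 in intervals of 1504 to 1624 bp, while Chd4, the NuRD ATPase, had 130 tags and a fold of 4.12.

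Among enzymes that write or erase histone marks, histone methylation and demethylation genes were broad in 9 of 22 (40.9%, 20.7 to 63.6), led by Setd1b with 2216 bp and 184 tags, Suv420h1 with 2139 bp and 367 tags, and Mll1 with 2138 bp and 231 tags. Setd1b and Mll1 methylate H3K4 and Suv420h1 methylates H4K20. The list of acetylation enzymes and readers also holds the corepressor gene Rcor1. This list had 6 of 22 (27.3%, 10.7 to 50.2), led by Kat6b (2108 bp), Brd3 (2093 bp) and Rcor1 (2069 bp), with folds of 4.85, 7.37 and 3.77. Polycomb genes had 5 of 20 (25%, 8.66 to 49.1). Ezh2, the H3K27 methyltransferase, had 2283 bp, 354 tags and a fold of 10.8, and Cbx2, which binds that mark, had 1817 bp, 205 tags and a fold of 6.74.

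Splicing factors of the hnRNP and SR families had 14 of 31 genes (45.2%, 27.3 to 64.0), and the highest list median of fold, 6.88. Hnrnpa0 had 2481 bp and 254 tags at a fold of 6.62, Hnrnpr had 2094 bp and 265 tags at a fold of 12.2, and the longer Hnrnpf interval had a fold of 4.92. Further members with high values were Hnrnpab (523 tags, fold 26.5), Srsf3 (347 tags, fold 24.2) and Srsf7 (285 tags, fold 22.8). Genes of microRNA function and RNA decay had 7 of 24 (29.2%, 12.6 to 51.1), led by Cnot6l, a deadenylase, with 2541 bp, Tnrc6c, a GW182 protein, with 2284 bp, and Ago2, the slicing Argonaute, with 1960 bp.

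Transcription factors of the B lineage had 9 of 20 genes (45.0%, 23.1 to 68.5). Lef1, a Wnt-responsive HMG-box factor also active in pro-B cells, had 2742 bp, 247 tags and a fold of 5.31, and Myb, required for progenitor B cells, had 2105 bp, 203 tags and a fold of 8.70. Beside these and Bcl11a, the broad ones were the E proteins Tcf3 (1932 bp, 226 tags) and Tcf12 (1865 bp, 246 tags), Bcl6, Pou2f1, Foxo1 and Mef2d. Genes for the pre-B-cell receptor and for surface or signalling proteins of B cells were broad in 1 of 19 (5.26%, 0.13 to 26). That gene was Cd24a, for a glycosyl-phosphatidylinositol-linked surface protein, with 2348 bp and 276 tags. The median fold was 4.40 for the transcription factors and 3.92 for the surface and signalling list, both under the 4.50 of all single-gene promoter peaks.

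Other regulator families lay between these values. KLF and SP factors had 5 of 12 (41.7%, 15.2 to 72.3), with Klf13 at 2657 bp, Klf16 at 2143 bp and Sp1 at 2076 bp. The MYC and MAX network had 3 of 9 (33.3%, 7.49 to 70.1). These were Mnt, Mxd4 with 1597 bp and Mycn with 1505 bp. Zinc finger genes taken by symbol had 15 of 138 (10.9%, 6.21 to 17.3), near the share of all genes, led by Zbtb7a (2498 bp), Zfp668 (2226 bp) and Zfp36l1 (2008 bp). RNA polymerase II, Mediator and elongation genes had 5 of 26 (19.2%, 6.55 to 39.4), of which Cdk13, a kinase of the polymerase's tail, was widest with 2466 bp, followed by Cdk19 with 1970 bp and Aff4 with 1856 bp.

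Of the signalling lists, Notch and TGF-beta genes had 10 of 26 (38.5%, 20.2 to 59.4). Smad3, a receptor-activated SMAD, had 2896 bp and 262 tags, Tgif1, a corepressor of SMADs, had 2855 bp and 327 tags, and Notch1, the receptor, had 2212 bp and 169 tags. Smad2, Smad4 and Smad7 were broad as well, at 1632, 1614 and 1734 bp, so the list holds activating SMADs and the inhibitory one. PI3K, mTOR and Ras-MAPK genes had 8 of 31 (25.8%, 11.9 to 44.6), among them the PI3K subunit gene Pik3r1 with 1896 bp and 177 tags and the kinase gene Akt1 with 1808 bp and 165 tags. Wnt/beta-catenin genes had 4 of 22 (18.2%, 5.19 to 40.3), with Tle3, Lef1 and the receptor gene Fzd7 (1636 bp) as the widest.

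Among cell-cycle genes the cyclin, CDK, E2F and Rb list had 7 of 20 (35.0%, 15.4 to 59.2). Beside E2f3 these included Cdc25a, a CDK-activating phosphatase, with 2191 bp and Ccne2, cyclin E2, with 2018 bp and a fold of 10.2. Of the genes of the BCL2 family and the p53 pathway 5 of 16 (31.2%, 11.0 to 58.7) were broad. Ccng2, an unconventional cyclin, had 2037 bp, 324 tags and a fold of 18.5, Trp53, the p53 gene, had 1994 bp and a fold of 4.03, and Bbc3, which encodes the killer protein PUMA, had 1904 bp and a fold of 6.46. Ubiquitin ligase and deubiquitinase genes had 14 of 51 (27.5%, 15.9 to 41.7), with Trim28, the HECT ligase gene Nedd4 (2106 bp, fold 5.23) and Rnf44 as the widest. Solute carriers had 10 of 69 (14.5%, 7.17 to 25), with Slc38a2 (2209 bp), Slc12a7 (2130 bp) and Slc1a4 (1788 bp) ahead.

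No broad peak was found in 4 lists of ribosomal, oxidative phosphorylation and proteasome genes. Of the listed genes with a single-gene promoter peak, 0 of 43 for cytosolic and 0 of 27 for mitochondrial ribosomal proteins were broad. The same held for 0 of 24 for nuclear oxidative phosphorylation proteins and 0 of 17 for proteasome subunits. Together this was 0 of 111. The lists were taken by symbol pattern, so genes of these classes under other symbols were not counted. Dap3, which encodes a mitochondrial ribosomal protein, is such a gene. It had a broad peak (1741 bp, 137 tags, fold 3.58) and was named after its values were seen. Cox20, the assembly factor of cytochrome c oxidase, was not taken by the patterns either and had a broad peak (1781 bp, 766 tags, fold 29.6). The exact upper limit of the share of 0 of 111 is 3.27%, and 3 counts of the total, the limit that a count of 0 allows, come to 2.70%. The upper ends of the exact intervals were under 13.7% for both ribosomal lists, at 8.22% and 12.8%, and above it for the other two, at 14.2% and 19.5%. The widest of the 111 was Rpl13a with 1356 bp, which also had the most tags, 166. The median width was 896 bp for cytosolic ribosomal genes and 760 bp for oxidative phosphorylation genes, with median folds of 4.38 and 4.76. Their folds were thus close to the 4.50 of all single-gene promoter peaks, and their widths below the 994 bp. These lists do not stand for housekeeping genes in general. Broad peaks were found at Hsp90ab1, a cytosolic chaperone (2173 bp, 204 tags, fold 6.32), the ubiquitin gene Ubb (1992 bp, 193 tags, fold 6.24) and Eef1a1, a translation elongation factor (1714 bp, 148 tags, fold 4.86). They were also found at Ppia, cyclophilin A (1680 bp, 232 tags, fold 21.3), Actb, beta-actin (1597 bp, 233 tags, fold 13.7) and the glycolytic gene Gapdh (1553 bp, 128 tags, fold 3.67). These 6 were picked after their values were seen.

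Cell identity was looked at through the peaks themselves, which do not measure expression. Starts were covered at 4 of 14 progenitor B-cell markers, namely Cd79a, Igll1, Il7r and Cd24a, of which only Cd24a had a broad peak. No peak covered the start of Cd79b, Vpreb1, Ebf1, Pax5, Rag1, Rag2, Dntt, Kit or Ptprc. Of markers for other cells, 1 of 5 erythroid starts was covered (Tfrc), and 0 of 4 hepatocyte, 0 of 4 myeloid and 0 of 5 T-cell starts. The wider lists for other lineages had too few single-gene promoter peaks for a share to be read, 1 each for the T-lineage, myeloid and erythroid genes and 0 for hepatocyte genes. The T-lineage peak (Notch1) and the myeloid one (Cebpb, 1598 bp, 108 tags, fold 3.0) were broad. Over chromosomes the broad share of single-gene promoter peaks was between 10.1% and 17.9% on the autosomes, and 1 of 48 (2.08%, 0.05 to 11.1) on chromosome X.

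Sequence was not used to choose the peaks. A RefSeq promoter was matched for 533 of 650 genes with a broad peak (82.0%), for 3308 of 4108 with a narrower one (80.5%), and the table holds 27025. The median GC content of the 300-base window was 67.3% (95% interval of the median 66.3 to 68.7) for genes with a broad peak, 62.7% (62.3 to 63.3) for those with a narrower one and 52.7% over the whole table. CpG dinucleotides numbered 28, 24 and 7 in the same order, and their observed over expected ratio was 0.853, 0.825 and 0.389. The broad and narrower sets largely overlapped, with quartiles of 20 and 36 CpGs for broad peaks and of 17 and 31 for narrower ones. Promoters under peaks from 1000 bp to just under 1500 bp had a median of 26 CpGs and a ratio of 0.850.

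Short words were searched on both strands. The GC box GGGCGG was found in 421 of 533 promoters with a broad peak (79.0%, 75.3 to 82.4), in 73.5% (71.9 to 75) with a narrower peak and in 35.9% of all. For peaks from 1000 bp to just under 1500 bp it was 77.5% (75.2 to 79.7), whose interval overlaps that of the broad set. The ETS-type word CCGGAAG went the other way, with 59 of 533 (11.1%, 8.53 to 14) for broad and 717 of 3308 (21.7%, 20.3 to 23.1) for narrower peaks, where all promoters had 9.12%. Promoters under peaks from 1000 bp to just under 1500 bp lay between, at 18.7% (16.7 to 20.9). CCAAT was found in 33.0% (29.0 to 37.2) for broad, 38.9% (37.2 to 40.6) for narrower peaks and 37.9% of all. The E box CACGTG had 12.0%, 11.9% and 7.24% in the same order, and TATAAA 5.82%, 5.59% and 14.2%.

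For the words closest to a SOX site the intervals of the broad and narrower sets overlapped. AACAAAG was found in 4.50% of promoters with a broad peak (2.91 to 6.63), in 4.17% with a narrower one (3.52 to 4.91) and in 5.79% of all. AACAAT was found in 7.69% (5.58 to 10.3), 5.17% (4.44 to 5.98) and 10.9% in that order. For AACAAT the overlap was slight, between 5.58% and 5.98%, and the difference was not tested. Promoters under peaks from 1000 bp to just under 1500 bp had 5.11% (4.02 to 6.39) for AACAAAG and 4.82% (3.76 to 6.07) for AACAAT. These windows cover only 300 bases near the start, while the broad intervals are at least 5 times as long, so sites elsewhere in the interval were not searched. A match is a short word and not a bound site.

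**Figure D5:**
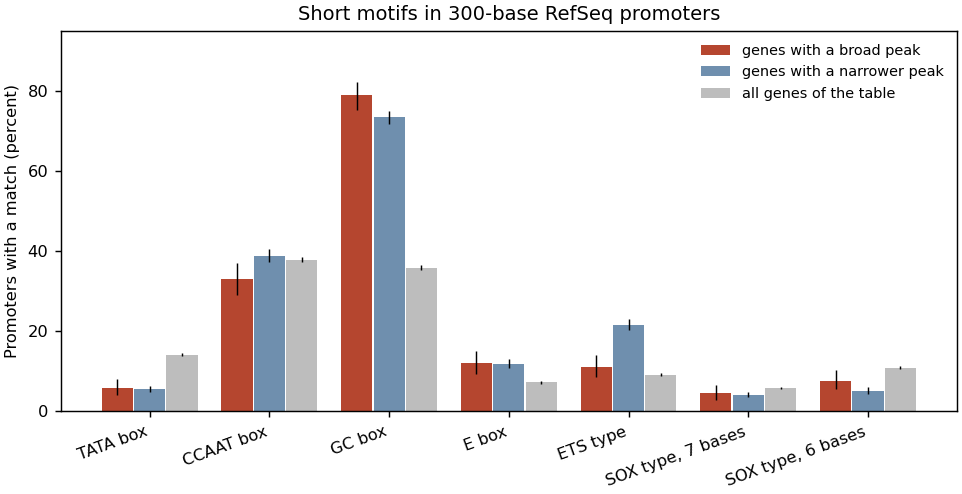
Percent of 300-base RefSeq promoters (y axis) with a match on either strand to 7 short motifs (x axis), for genes with a broad peak (red, 533), with a narrower one (blue, 3308) and all genes of the table (grey, 27025). Error bars are exact 95% intervals. The ETS-type bar of the broad set, 11.1%, is close to the 9.12% of all promoters, and that of the narrower set is 21.7%.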

How the data were processed

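Sox4 bioChIP and input chromatin of the same mouse cells were sequenced, 1 library each. The submitters' processing notes name the mm9 build, Bowtie 0.12.8 and MACS 1.4.2 without roles or settings. The deposited peak list gives tag counts per peak, not normalized, the fold as a linear ratio over the caller's background, and a score read as minus 10 log10 of a p-value. All are the authors' own values. The lowest score is 50.03. The sequencing depth is unknown, and the 763284 tags in peaks are not the depth. Whether starts were counted from 0 or 1 is not stated. The input library was not analysed here.

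Members, gene lists and comparisons were chosen with earlier results of these data known. Width is end minus start. The named genes were the 10 widest, the 6 with the highest fold and the 6 with most tags, the 3 on each side of 1500 bp (4 tie inside), and up to 3 of the widest per list. Some genes that these rules name are not reported here. Others were named after their values were seen, including further list members. Of 29 lists, 22 had fixed symbols and 7 used symbol patterns. Among the members, Lef1, Kdm2b, Mcl1, Notch1 and Zfp36l1 stand in 2 lists each. With 1 library no test was made. Shares have exact Clopper-Pearson, tags exact Poisson and medians order-statistic 95% intervals, which cover counting error only, and PCR copies were not told apart.

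Distances were read as bp to the start of a transcript, 0 where the peak covers it. A start was recovered where a distance of the same transcript to another peak, within 25 kb, placed it inside the covering peak. This was chosen after seeing the data. It gave 2535 starts, the most upstream where several were found, and the strand differed from RefSeq in 4 of 2085 that could be compared. For 107 peaks the recovered starts differed by more than 10 bp. Gene classes, lengths and promoters are from RefSeq (GRCm38.p6), to which 651 members were matched by accession, 1 by an older symbol and 2 by symbol, and the first promoter entry per gene. Peak coordinates stay in mm9. Python 3.11.15, pandas 2.3.3, numpy 2.4.6 and scipy 1.17.1 were used, and the scripts were tested on simulated data. Alternatives changed the width limit, the score or fold minimum, the comparison class, the recovered start and the promoter entry.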

Additional observations from a re-analysis of the deposited data

How the results depend on the processing

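Over 82 alternative values of the differences between broad and narrower peaks and of the counts of broad peaks, genes and lists, no difference changed sign. The counts have no sign to change, and the reach differences follow in part from the width that chose the peaks. The absence of a change of sign is therefore no measure of stability for these. Of the 82 values 55 stayed within the counting interval of the reported value, or within 1.5 times for a count, and 27 did not. The intervals are wide for the share with a peak within 5 kb, whose difference of 3.08 points was 0.75 with folds of 5 or more, and for gene length, whose difference of 9582 bp was 5162.5 bp against peaks from 1000 bp to just under 1500 bp. With a limit of 1200 bp there were 1429 broad peaks, with differences in median tags per kb of 13.98 and in fold of 0.65. The differences in reach were then 184.5 bp upstream and 432 bp downstream. At that limit 5 genes of the ribosomal, oxidative phosphorylation and proteasome lists had a broad peak. With 2000 bp there were 159, with 18.4 tags per kb, 1.54 in fold, 15.1 points in the share with a fold of 10 or more, 8.50 points in the share with a near peak, 421 bp upstream and 898 bp downstream, and BAF genes were 15.9 points above all genes. With scores of 100 or more the differences were 9.57 tags per kb, 0.29 in fold and 3.0 points of GC. With folds of 5 or more there were 376 broad peaks and 15.0 points in the share with a fold of 10. Against peaks from 1000 bp to just under 1500 bp the differences were 9.90 tags per kb, 0.695 in fold, 7.93 points with a fold of 10 or more, 2.0 points of GC, -7.65 points for CCGGAAG, 193 bp upstream and 445.5 bp downstream. With the most downstream recovered start, an alternative chosen after seeing the data, the downstream difference was 553 bp. The cause of these shifts was not tested.

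No paired analysis was possible because there is 1 library of each kind. All values rest on 1 bioChIP library of unknown depth, and nothing here shows how they would vary between cultures. A broad interval holds more tags, so the relative counting error of its tag number is smaller, while shares and medians over the 654 broad peaks have wider intervals than those over the 4136 narrower ones. Widths near 1500 bp are not separable from those just below.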
